A study of Mus musculus with 30 samples.

Results

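The absorption and secretion of NaCl, bicarbonate and water by the colonic epithelium were described through 10 genes: Slc26a3, Slc9a3, Slc9a2, Car1, Car2, Car4, Aqp8, Aqp4, Cftr and Slc12a2. They were chosen by their known roles, matched by gene name and gene identifier, and make up 10 of the 46078 genes in the count table. RNA-seq was performed on colon tissue of C57BL/6J mice, which were a few weeks old when obtained, with 6 libraries in each of 5 groups. CD females and CD males received a control diet for 13 weeks, and HFD females and HFD males received a high-fat diet for the same time. These 4 groups were injected with vehicle, 9 times over the last 3 weeks. HFD+E2 males received HFD and estradiol (E2) at 0.5 mg/kg by the same schedule. The females had intact ovaries. The labels give the tissue as colon without naming its layers, and markers of epithelium, smooth muscle and B cells were all found in it. The diet and sex comparisons ask whether the transport genes differ between the sexes and with obesity, and the E2 comparison asks whether the hormone moves them in obese males.

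Surface colonocytes absorb salt by pairing an apical exchanger that takes up chloride for bicarbonate with one that takes up sodium for protons. Carbonic anhydrases supply the bicarbonate and protons for both exchangers, and water follows the salt through the cells, in part through aquaporins, and between them. Crypt cells also secrete chloride, which enters across the basolateral membrane and leaves through an apical channel. Loss of the apical chloride exchanger causes a lifelong chloride-losing diarrhea in humans and mice.

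RefSeq promoter sequences (GRCm38.p6) were on hand for 5 of the 10 genes. The 250 bases before the RefSeq start of Slc26a3 (chr12:31437969-31438218, plus strand) and of Car4 (chr11:84957504-84957753, plus strand) are shown, because these genes carry the sex and E2 differences described below and differed in opposite directions with E2. Capitals mark GGTCA, which forms each arm of the estrogen response element, and TTTAT, a core of the sites of the intestinal CDX factors, on either strand.
Slc26a3: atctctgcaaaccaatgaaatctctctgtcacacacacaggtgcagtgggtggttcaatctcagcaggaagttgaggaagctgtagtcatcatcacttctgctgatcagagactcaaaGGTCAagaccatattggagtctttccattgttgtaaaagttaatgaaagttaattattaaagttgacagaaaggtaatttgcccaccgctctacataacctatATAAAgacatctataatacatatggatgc
Car4: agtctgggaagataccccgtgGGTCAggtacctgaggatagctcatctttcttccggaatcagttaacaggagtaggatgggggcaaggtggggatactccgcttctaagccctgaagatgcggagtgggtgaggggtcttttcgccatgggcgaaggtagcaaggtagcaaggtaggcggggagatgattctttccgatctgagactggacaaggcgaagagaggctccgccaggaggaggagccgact
Both windows held 1 GGTCA match, as did 35.2% of all 32851 promoter windows of this length in at least 1 copy. The windows of Slc9a3, Aqp8 and Cftr held none. The full estrogen response element, GGTCANNNTGACC, was in none of the 5 windows and in 0.0639% of all windows. TTTAT was found once in the windows of Slc26a3 and Aqp8, and in 37.3% of all windows. The E-box CACGTG, which clock factors bind, was found once in the windows of Slc9a3 and Aqp8 and in 6.02% of all windows. A letter match is a description of the sequence, not a bound site. The windows differed in base composition, with 38.8% G and C for Slc26a3, 56.4% for Car4 and 76.4% for Cftr, against a median of 52.4%.

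In the GRCm38 annotation, Slc26a3 (ENSMUSG00000001225), the apical chloride-bicarbonate exchanger, lies at chr12:31390871-31473917. This interval begins with a longer transcript form, upstream of the RefSeq start used for the promoter window above, so that window lies inside it. The apical sodium-proton exchangers Slc9a3 and Slc9a2 lie at chr13:74121515-74166064 and chr1:40680574-40769273. Car1 and Car2, which encode cytosolic carbonic anhydrases, are neighbours at chr3:14766216-14808368 and chr3:14886273-14900770, and Car4, which encodes a membrane-anchored one, lies at chr11:84957786-84966044. The water channel genes Aqp8 and Aqp4 lie at chr7:123462294-123468003 and chr18:15389394-15403684. Cftr, the apical chloride channel, lies at chr6:18170687-18322768, and Slc12a2, the basolateral sodium-potassium-chloride cotransporter, at chr18:57878678-57946821. Slc26a3, Car1 and Cftr share a strand with the annotated genes Gm9359, Gm16399 and Gm15595, while Slc9a2, Aqp4 and Cftr face the antisense genes Gm37623, AC133525.2 and Gm15592. Reads in those overlaps are uncertain for these 5 genes. Slc9a3, Car2, Car4, Aqp8 and Slc12a2 have no overlapping gene in this annotation.

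The counts on genes ranged from 8667177 to 17243712 per library. The 14 epithelial markers summed to 6303 to 9623 normalised CPM (counts scaled to the depth of the library), and 6 small intestinal markers to at most 9.32 CPM. All libraries held Epcam, Vil1 and the other epithelial markers except Cdx2. Cdx2 had 0 counts in 5 libraries and a median of 0.202 CPM. Some libraries stood apart. Of the 12 smooth muscle markers, 8 were lower in CD females than in CD males by adjusted p, and their summed level was 6618 to 10267 CPM in CD females and 8819 to 15101 CPM in CD males. Of the 8 goblet cell markers, 2 were higher in CD females, and their sum was 6945 to 8003 CPM against 4045 to 6767 CPM. By adjusted p, 319 of all 14922 tested genes were lower in CD females and 116 higher. B cell markers summed to 29.3 to 138 CPM in CD females and 2.74 to 94.5 CPM in CD males. The squamous epithelium markers summed to 3881 to 4646 CPM in HFD females 1, 3 and 4, above every library of the other groups. CD male 1 had the highest value of its group for 7 of the 9 transport genes with more than a few counts, and the lowest for Car4. That library also had the lowest smooth muscle sum of its group, 8819 CPM, and the highest B cell sum. In bulk tissue, fewer cells of a type and less RNA per cell cannot be told apart.

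On the TPM scale, which corrects the number of transcripts for gene length and depth, the transport genes spanned a wide range of levels. Car2 was the highest, with a median of 350.2 TPM over the 30 libraries and a range of 221 to 920.1 TPM. Slc26a3 followed with a median of 213 TPM and was below Car2 in 29 of 30 libraries. Car4 (median 175 TPM) and Car1 (median 172 TPM) were not separated: Car4 was the higher in 14 of 30 libraries. Car1 was the most variable of the abundant genes, from 59.1 to 1002 TPM. Slc12a2 had a median of 67.3 TPM and Aqp8 one of 56.3 TPM, with Slc12a2 the higher in 21 of 30 libraries. Slc9a2 (29.3 TPM) and Cftr (29.1 TPM) were alike in median, and Slc9a2 was the higher in 17 of 30. Aqp4 was far lower, at a median of 4.40 TPM, and below Cftr in 30 of 30 libraries. Slc12a2, which loads chloride into the cell, was above Cftr, through which it leaves, in 30 of 30 libraries. The TPM of a gene depends on the transcript forms that the estimate assigns. For Car1 the ratio of TPM to normalised CPM ranged from 0.618 to 1.35 between libraries, so groups were compared on counts.

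**Figure D1:**
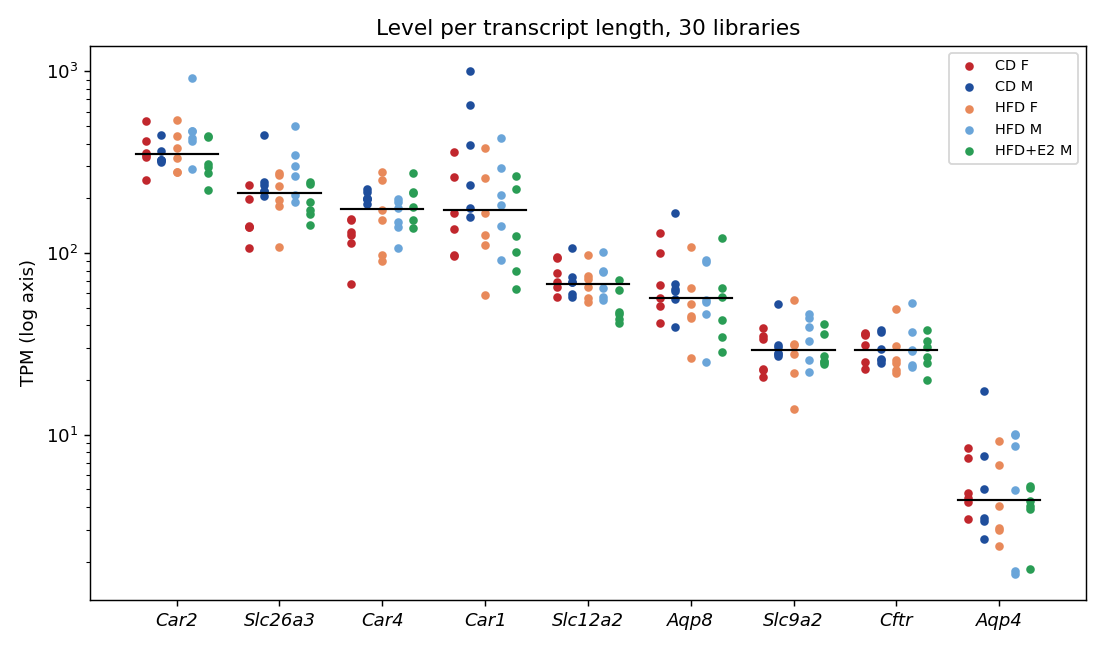
TPM on a log axis of 9 transport genes in 30 libraries, with 1 point per library coloured by group and a line at the median of all libraries. Slc9a3, listed at 0 TPM in most libraries, is not drawn. Car2 is at the top (median 350.2 TPM) and Aqp4 at the bottom (median 4.40 TPM).

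Slc9a3, the sodium-proton exchanger of the apical brush border, was close to undetected. It had 43 counts in all 30 libraries together, 0 counts in 14 libraries and more than 3 counts in 3 libraries. The highest were 13 counts in CD male 1, 5 counts in CD male 4 and 4 counts in HFD female 3. A count of 0 allows a level of up to 0.174 to 0.346 CPM, depending on the depth of the library. No group stood out, since every group had libraries at 0. Slc9a3 did not pass the filter on low counts, and the exact permutation test (two-sided, on log2 CPM) gave p from 0.459 to 0.773 in the 5 comparisons, where the smallest p it can give is 0.00216. Slc9a2, the other apical exchanger of this kind, had 507 to 2183 counts per library. Cdx2 of the epithelial markers and Slc51a of the surface colonocyte markers were also near 0, with medians of 0.202 and 0 CPM. The other markers of both lists had counts in every library. Whether Slc9a3 is absent from the tissue or was missed in these libraries was not tested.

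The other 9 genes were tested in each comparison with edgeR. With an adjusted p under 0.05 as the threshold, 0 of 9 passed in any of the 5 comparisons. With the study's threshold (a p under 0.05 without adjustment, and more than 0.4 between the groups on the log2 scale, up or down), 3 genes passed between the sexes on CD, 2 between HFD and CD in males, 3 between E2 and vehicle, and 0 in the others. These 8 differences were in Slc26a3, Car4, Car1 and Car2. The aquaporin and secretion genes and Slc9a2 did not pass it in any comparison, although some did under alternative fits, given gene by gene below.

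**Figure D2:**
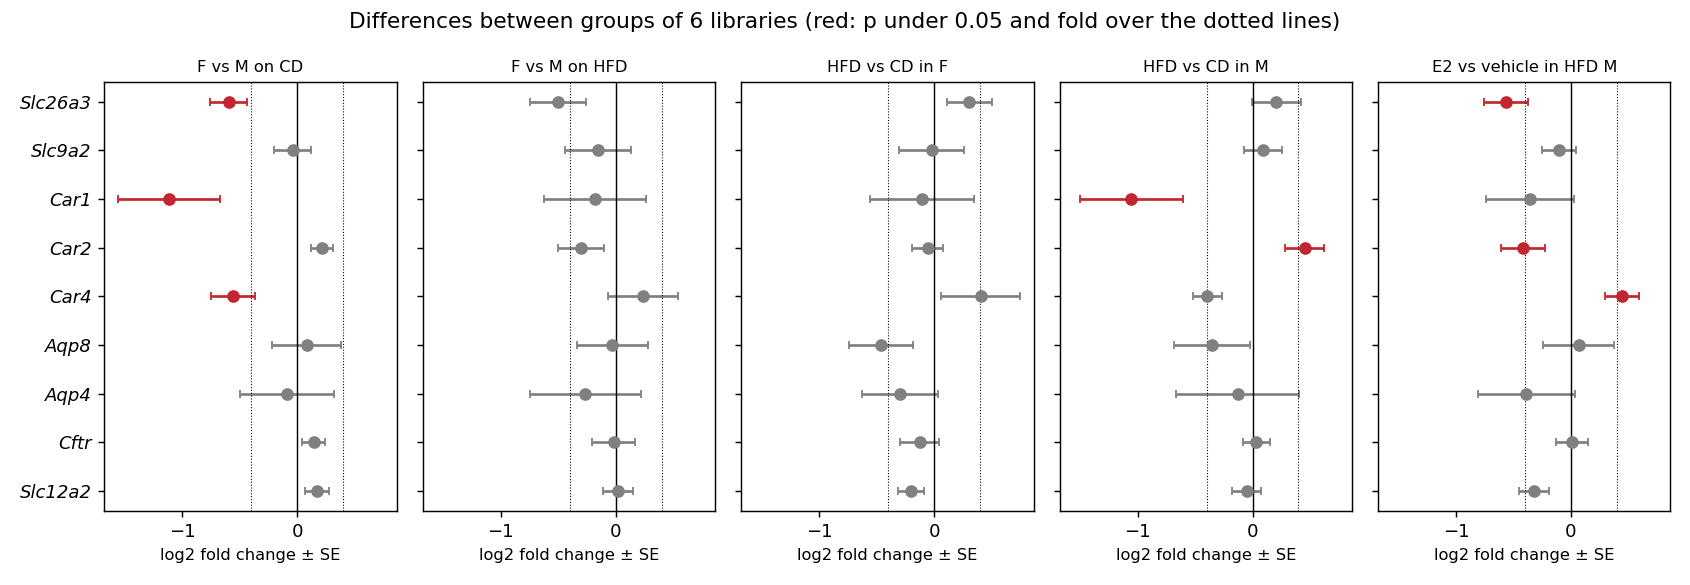
Log2 fold change (x axis) of 9 transport genes in 5 comparisons of 6 against 6 libraries, with bars of 1 SE. Red points pass an unadjusted p under 0.05 and a log2 fold change beyond the dotted lines at 0.4, and the red points lie in the rows of Slc26a3, Car1, Car2 and Car4.

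Between the sexes on CD, the genes of apical chloride-bicarbonate exchange and 2 of the 3 carbonic anhydrase genes were lower in females, with log2 fold changes of -0.60 for Slc26a3, -0.56 for Car4 and -1.12 for Car1. These 3 of 9 genes passed the study's threshold, all lower in females, against a background of 6.21% of all 14922 tested genes lower and 2.94% higher by this rule. By adjusted p, 0 of 9 passed against 2.92% of all tested genes. At an unadjusted p under 0.05, 4 of 9 were found. The share of all genes at this unadjusted cutoff was not computed, here or in the comparisons below. By adjusted p, DESeq2 called 1 of the genes, Slc26a3, where it called 250 of 27698 genes higher and 524 lower in females. Limma on log2(TPM + 1) with its filter called 1, Car4, where it called 19 of 15745 genes higher and 182 lower. The other limma settings called 0. Between the sexes on HFD, 0 of 9 passed either threshold and 0 had an unadjusted p under 0.05, against a background of 0.0988% by adjusted p and 2.01% higher and 1.08% lower in females by the study's threshold. DESeq2 called 0 by adjusted p there, and 1 by the study's threshold, which was Slc26a3.

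Between HFD and CD in females, 0 of 9 passed either threshold and 0 had an unadjusted p under 0.05. The background was 0.0199% by adjusted p, and 2.95% higher and 0.724% lower on HFD by the study's threshold. DESeq2 called 0 by either. In males, Car1 was lower and Car2 higher on HFD by the study's threshold, where 1.64% of all tested genes were lower and 1.25% higher, and 0 of 9 passed by adjusted p against 0.0% of all genes. At an unadjusted p under 0.05, 3 of 9 were found, and DESeq2 called 0 by adjusted p. With E2 in HFD males, Slc26a3 and Car2 were lower and Car4 higher by the study's threshold, where 3.24% of all tested genes were lower and 2.63% higher. By adjusted p, 0 of 9 passed against 0.00666% of all genes, 4 of 9 had an unadjusted p under 0.05, and DESeq2 called 0 by adjusted p. HFD males served in both the diet and the E2 comparison, and CD males in both the sex and the diet comparison, so these comparisons are not independent of each other.

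**Figure D3:**
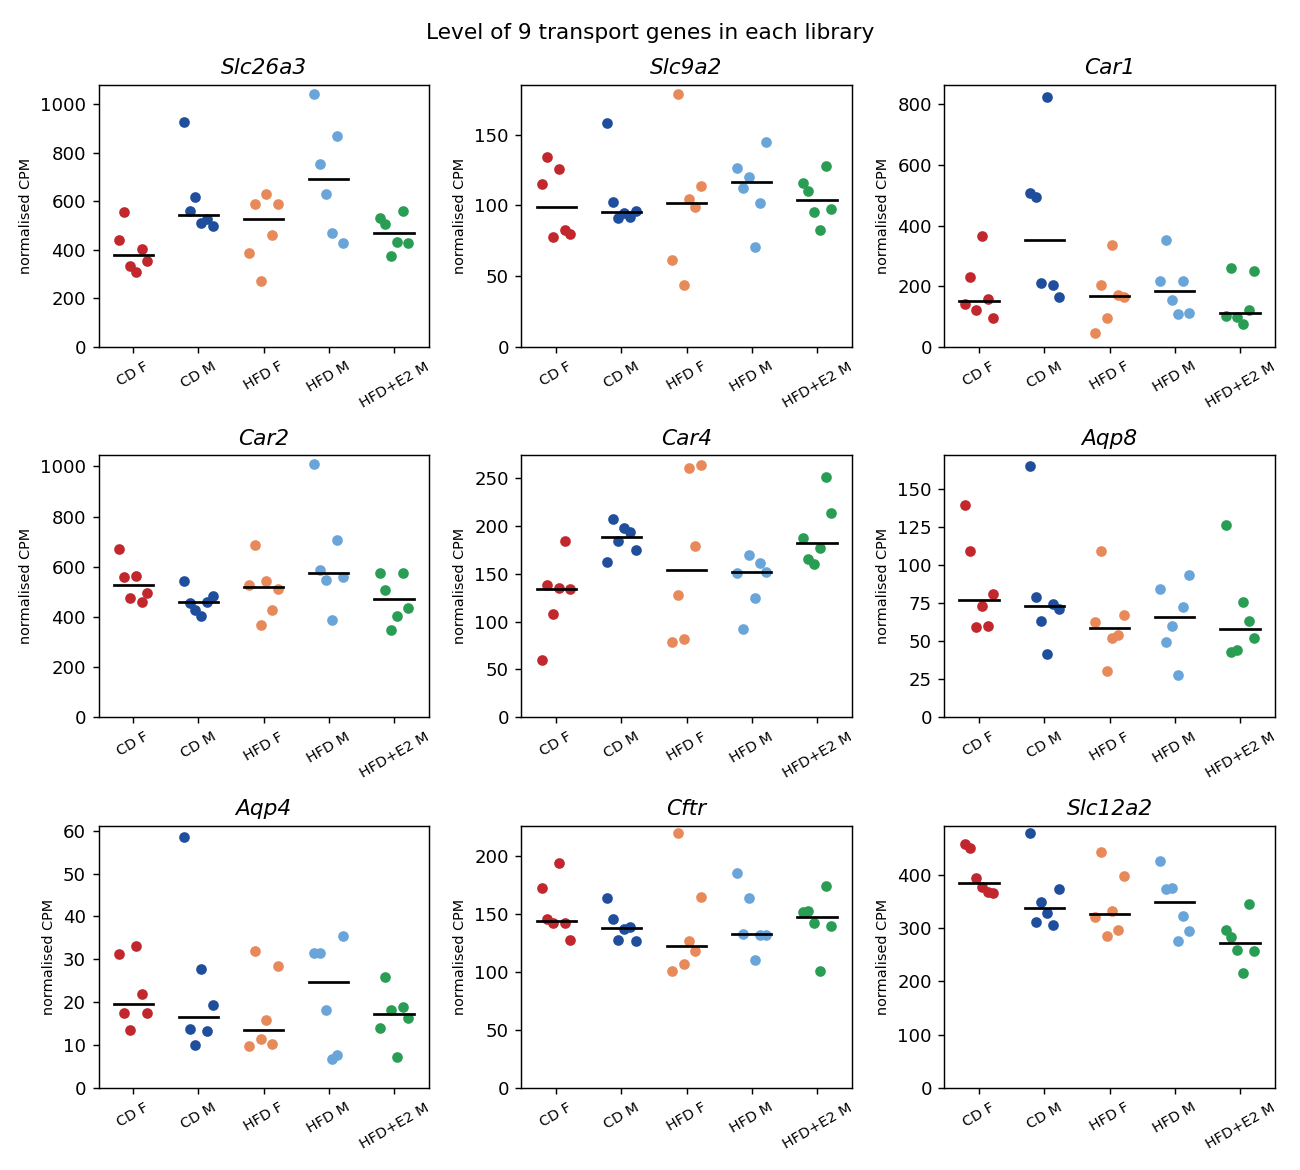
Normalised CPM (linear axis from 0) of 9 transport genes, with 1 point per library and a line at the median of each group of 6. For Slc26a3, 5 of 6 CD females lie below the lowest CD male, and for Car4, 4 of 6 HFD+E2 males lie above the highest HFD male.

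Slc26a3 was lower in CD females than in CD males. The lowest, median and highest values were 307, 379 and 555 normalised CPM in CD females and 496, 541 and 926 CPM in CD males. All but 1 of the CD females lay below the lowest CD male, and the exception, CD female 2, lay above 3 of the males. The log2 fold change was -0.60 ± 0.16 (SE), with adjusted p = 0.0583. Without CD male 1 it was -0.45, with adjusted p = 0.0653. With the smooth muscle score as a covariate it was -1.04, with adjusted p = 0.0246. That score ranged from 8.09 to 8.76 in CD females and from 8.53 to 9.26 in CD males. This fit therefore cannot cleanly separate sex from the score, for Slc26a3 or for the other genes. Over all tested genes, its median absolute log2 fold change was 0.239, against 0.135 without the score. For Slc26a3, DESeq2 gave -0.59 with adjusted p = 0.0204. The adjusted p was also under 0.05 without CD female 2 (-0.72, adjusted p = 0.0204) and without CD male 6 (-0.66, adjusted p = 0.0483).

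On HFD, Slc26a3 was at 269.7, 524 and 629.6 CPM in females and 428, 691 and 1040.5 CPM in males. The groups overlapped in 4 of 6 females. The log2 fold change between the sexes was -0.50 ± 0.24, close in size to that on CD, with adjusted p = 0.872. It passed the study's threshold without HFD female 4 (-0.59), HFD male 4 (-0.59) or HFD male 6 (-0.61), with the smooth muscle score (-0.63) or the B cell score (-0.58) as a covariate, with DESeq2 and with all 30 libraries in one fit (both -0.51). The values on HFD were 0.31 ± 0.19 (log2) above CD in females and 0.21 ± 0.21 above CD in males, and neither passed a threshold. Without the 3 HFD females of high squamous level, the difference in females was 0.46, which passed the study's threshold but not the adjusted one. It was also past the study's threshold without CD female 2 or HFD female 3 (0.43 for each), and with the squamous (0.61), smooth muscle (0.45) or epithelium (0.46) score as a covariate. The sex by diet interaction of Slc26a3 was 0.09 ± 0.31, with adjusted p = 0.958.

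Slc26a3 was lower with E2 than with vehicle in HFD males by the study's threshold, with medians of 468 and 691 CPM. The HFD+E2 males ranged from 372 to 561 CPM, narrower than the 428 to 1040.5 CPM of the HFD males, and lay inside that range in all but 1 library. The log2 fold change was -0.57 ± 0.19, with adjusted p = 0.455. It passed the study's threshold in each of the 12 fits that left out a library, from -0.66 to -0.41, and in each of the 14 other alternatives.

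Slc9a2 did not pass a threshold in any of the 5 comparisons. Its medians were 98.9 CPM in CD females, 95.2 in CD males, 102 in HFD females, 116 in HFD males and 104 in HFD+E2 males. HFD females had the widest range, from 44.0 to 179 CPM, and their lowest library, HFD female 3, was also the lowest of its group for Slc26a3. The log2 differences lay between -0.16 ± 0.29 (females against males on HFD) and 0.09 ± 0.17 (HFD against CD in males). CD male 1, at 158 CPM, was above the other CD males, which reached at most 102 CPM. The difference between the sexes on CD, -0.04 ± 0.16, was 0.10 without this library, and -0.52 and past the study's threshold with the smooth muscle score as a covariate (adjusted p = 0.168).

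Car4, the membrane-anchored carbonic anhydrase of the colonocyte surface, was lower in CD females than in CD males. The values were 60.1, 135 and 184 CPM (lowest, median, highest) in CD females and 163, 189 and 207 CPM in CD males. All but 1 of the CD females lay below the lowest CD male. The log2 fold change was -0.56 ± 0.19, with adjusted p = 0.146. It was -0.61 without CD male 1. With the smooth muscle score as a covariate it was -0.16 (adjusted p = 0.806), and with the B cell score it was -0.53 (adjusted p = 0.622), neither past the study's threshold.

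In HFD males, Car4 was at 92.7, 152 and 169.8 CPM, and 5 of 6 lay below the lowest CD male. This difference was -0.40 ± 0.13 (log2) with adjusted p = 0.704, and it fell just short of the fold minimum. It passed in the 7 fits without CD male 1, 3 or 6 or HFD male 1, 3, 5 or 6, at -0.46 to -0.40, and with the replicate block (-0.41), no filter on low counts (-0.41) or at least 10 counts in every library (-0.40). With E2, Car4 was at 160.4, 183 and 252 CPM, and 4 of 6 HFD+E2 males lay above the highest HFD male. The log2 fold change with E2 was 0.45 ± 0.15, with adjusted p = 0.455. On this gene HFD males were thus below both CD males and HFD+E2 males, with the HFD males shared by the 2 comparisons. Without HFD male 2, the lowest of its group, the difference with E2 was 0.35, and without HFD+E2 male 5, the highest of its group, it was 0.36, both under the fold minimum. With the squamous score as a covariate it was 0.28 (adjusted p = 0.866) and did not pass, and it kept the threshold with the smooth muscle, B cell and epithelium scores (0.45 to 0.47).

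HFD females spread widely on Car4, from 78.8 to 264 CPM with a median of 154 CPM. HFD females 1 and 3, which had high squamous levels, were the lowest, while HFD female 4, also with a high squamous level, was near the top at 261 CPM. Females on HFD were 0.41 ± 0.34 (log2) above females on CD, with adjusted p = 0.999. With the epithelium score as a covariate this was 0.99, past the study's threshold, with adjusted p = 0.176. The diet difference was therefore positive in females and negative in males. The sex by diet interaction was 0.80 ± 0.38, with adjusted p = 0.731. It passed the study's threshold, as 3.71% of all 15800 genes tested did in that direction, but 0 of 9 genes passed by adjusted p against 0.0% of all genes, and DESeq2 also called 0. At an unadjusted p under 0.05, 2 of 9 were found, Car4 and Car2.

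Of Car1, Car2 and Car4, Car1 had the largest differences and the largest spread. The values were 93.5, 150.4 and 365 CPM in CD females and 164, 352 and 825 CPM in CD males. CD males split into 3 libraries at 494 CPM and above (CD males 1, 2 and 4) and 3 at 209.5 CPM and below, and 4 of 6 CD females lay below the lowest CD male. The log2 fold change between the sexes on CD was -1.12 ± 0.45, with adjusted p = 0.252. It passed the study's threshold in 6 of the 12 fits that left out 1 library, and lost it without CD female 1, 3, 5 or 6 or CD male 1 or 4. The range of these fits was -1.43 to -0.77, with -0.77 without CD male 4. With the smooth muscle score as a covariate it was -0.88 and with the B cell score -1.18, and neither passed. HFD males were at 109.5, 185 and 352 CPM, and 3 of 6 lay below the lowest CD male. HFD against CD in males gave -1.05 ± 0.45, with adjusted p = 0.823, and the threshold was passed in 4 of 12 fits with a library left out, and not without CD male 1, 2 or 4 or HFD male 1, 3, 4, 5 or 6. These fits ranged from -1.31 to -0.70, with -0.70 without CD male 4. It also lost the threshold in 6 of the 14 other alternatives, among them the smooth muscle score (-1.22) and the epithelium score (-0.97) as covariates. HFD females, at 45.1, 168 and 335 CPM, and HFD+E2 males, at 74.1, 112 and 259 CPM, did not differ from their comparison groups by either threshold.

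Car2, the most abundant of the set, moved differently from Car1 and Car4. In CD females it was at 458, 526 and 671 CPM and in CD males at 402, 459 and 545 CPM, a difference of 0.21 ± 0.10 (log2) with adjusted p = 0.324 that stayed under the fold minimum and was -0.10 with the smooth muscle score as a covariate. HFD males were at 389, 573 and 1011 CPM, and 5 of 6 lay above the highest CD male. That difference was 0.45 ± 0.17, with adjusted p = 0.802. HFD+E2 males were at 349, 471 and 576 CPM, lower than HFD males by -0.42 ± 0.19 with adjusted p = 0.485. HFD male 1, at 1011 CPM, weighed on both. Without it, HFD against CD gave 0.27 and E2 against vehicle gave -0.22, and neither passed the study's threshold. The E2 difference of Car2 also lost the threshold without HFD male 2 or 5 or HFD+E2 male 2, 3, 4 or 6, and these fits ranged from -0.52 to -0.22. With the smooth muscle score as a covariate, HFD against CD was 0.21 and E2 against vehicle -0.27 (adjusted p = 0.663), and with the B cell score 0.39 and -0.42. None of these passed. Each of the 2 differences lost the threshold in 6 of the 14 alternatives other than leaving out a library. On HFD, Car2 differed by -0.30 ± 0.20 between the sexes, and it passed the study's threshold with the smooth muscle score (-0.42) and without HFD male 4 (-0.41). HFD females were at 366, 518 and 686 CPM, close to CD females (-0.06 ± 0.13). The sex by diet interaction was -0.52 ± 0.23, with adjusted p = 0.708, in the opposite direction to that of Car4. Of all genes tested, 1.47% passed the study's threshold in this direction.

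The aquaporin genes did not pass a threshold in any of the 5 comparisons. Aqp8, which encodes the main water channel of surface colonocytes, had medians of 77.1 CPM in CD females, 72.9 in CD males, 58.2 in HFD females, 65.8 in HFD males and 57.6 in HFD+E2 males. Its lowest value was 27.5 CPM in HFD male 4 and its highest 165 CPM in CD male 1. HFD against CD was -0.46 ± 0.28 (log2) in females, where 3 of 6 HFD females lay below the lowest CD female, with adjusted p = 0.999. It passed the study's threshold without HFD female 2 (-0.69) and with the replicate block (-0.48), and it was 0.01 with the squamous score as a covariate. In males it was -0.35 ± 0.33, and without CD male 1 it was -0.03. It passed the study's threshold with the smooth muscle score (-0.75) and the B cell score (-0.54) as covariates, with adjusted p of 0.843 or more. Between the sexes on CD the difference was 0.08 ± 0.30, but -0.97 with the smooth muscle score as a covariate, with adjusted p = 0.0542. Aqp4, a basolateral water channel also found in glia and stomach, had medians from 13.6 CPM in HFD females to 24.8 CPM in HFD males. CD male 1 reached 58.5 CPM, and the other CD males at most 27.6 CPM. The log2 differences of Aqp4 lay between -0.39 ± 0.42 (E2 against vehicle) and -0.09 ± 0.41 (sexes on CD), with adjusted p of 0.729 or more. Aqp4 passed the study's threshold with the smooth muscle score as a covariate between the sexes on CD (-1.11, adjusted p = 0.215), between the sexes on HFD (-0.56, adjusted p = 0.412) and between HFD and CD in males (-0.85). Without CD male 1, the difference between the sexes on CD was 0.40.

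The secretion genes varied least. Cftr had medians of 144, 138, 122, 132 and 147 CPM in females and males on CD, females and males on HFD, and HFD+E2 males. The groups overlapped in every comparison, and the log2 differences lay between -0.13 ± 0.17 and 0.14 ± 0.10. Slc12a2 had medians of 386, 339, 327, 349 and 271 CPM in the same order. HFD+E2 males ranged from 216 to 345 CPM and HFD males from 277 to 427 CPM, and 3 of 6 HFD+E2 males lay below the lowest HFD male. This difference was -0.32 ± 0.13, with adjusted p = 0.461, under the fold minimum of the study. With limma on log2(TPM + 1) it was -0.47 and passed. In that fit the median log2 fold change over all genes was -0.135, and 1216 of 15792 genes were lower and 168 higher by this threshold. Within groups, the standard deviation was 15.8% of the mean for Slc12a2 and 20.0% for Cftr, against 64.7% for Car1 and 57.3% for Aqp4.

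The E2 comparison also showed differences in the marker lists. Of 8 goblet cell markers, 3 were higher with E2 by the study's threshold (median log2 fold change 0.44), against 2.63% of all tested genes, and 3 of 10 crypt progenitor markers were lower (median -0.16), against 3.24% of all tested genes. The median over all genes was 0.00. None of these passed by adjusted p. Between HFD and CD in males, the 12 smooth muscle markers were all below 0 in log2 fold change (median -0.30). Of these, 1 passed the study's threshold, against 1.64% of all tested genes lower. Between HFD and CD in females, the 9 squamous markers that could be tested were all above 0 in log2 fold change (median 2.74). By the study's threshold 7 of the 9 were higher on HFD, against 2.95% of all tested genes, and 0 passed by adjusted p. Beyond the covariate fits given with each gene, the part of these shifts in the differences of the transport genes was not tested.

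**Figure D4:**
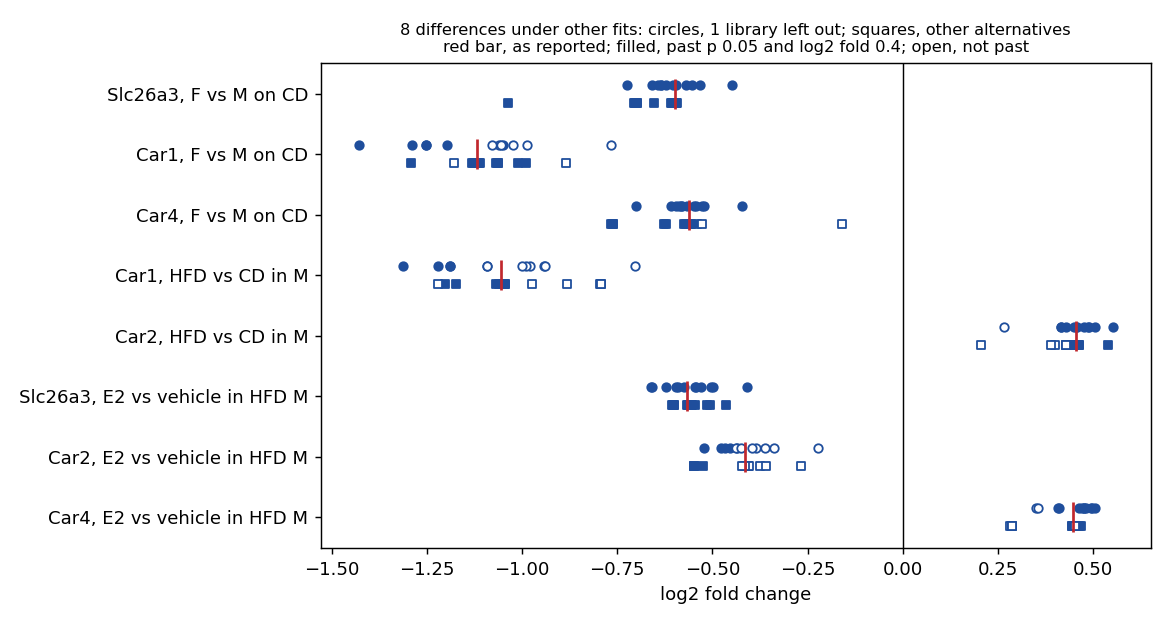
Log2 fold change (x axis) of the 8 differences past the study's threshold, refitted with 1 library left out (circles) and under the other alternatives (squares), with a red bar at the reported value. Filled points pass the threshold and open points do not. Both rows of Slc26a3 are filled throughout, while Car1, Car2 and Car4 have open points in each of their rows.

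Across libraries, most of the transport genes varied together, and Car4 did so least. The correlations are of log2 CPM with the mean of each group subtracted, over 30 libraries that share their normalisation, and describe these libraries without a test. Cftr varied with Slc9a2 (r = 0.79) and with Slc12a2 (r = 0.76). Slc26a3 varied with Slc12a2 (r = 0.74) and Car2 (r = 0.73), and Car2 with Aqp8 (r = 0.73). Car4 had r = 0.05 with Car2, 0.03 with Slc12a2 and 0.00 with Aqp8, and its highest value was 0.34, with Car1. Car1 had r = -0.02 with Aqp8. The smooth muscle score, the mean log2 CPM of its markers, had r = -0.78 with Slc12a2 and with Aqp4, -0.74 with Car2 and -0.56 with Slc26a3, but 0.05 with Car4. The epithelium score had r from -0.21 with Slc12a2 to 0.40 with Car4, and 0.10 with Slc26a3. The score of the surface colonocyte markers had r from 0.19 with Aqp8 to 0.56 with Slc26a3. That of the goblet cell markers had r from 0.32 with Car4 to 0.76 with Slc9a2. A score of 6 Hox genes that mark distal position had r from -0.61 with Aqp8 to 0.23 with Car4. It was -0.57 with Slc12a2, -0.51 with Car2 and -0.49 with Slc26a3.

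**Figure D5:**
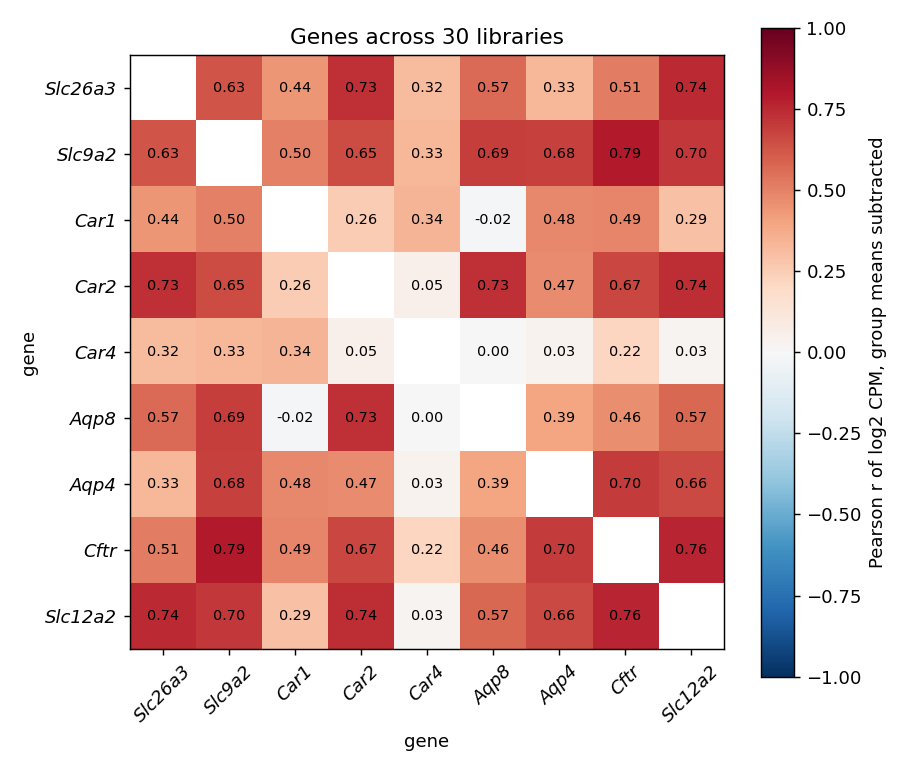
Pearson r between 9 transport genes over 30 libraries, on log2 CPM with group means subtracted, on a colour scale from -1 (blue) to 1 (red). The row of Car4 is pale (0.00 to 0.34), while Cftr with Slc9a2 reaches 0.79.

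Among the 12896 genes with at least 10 counts in every library, those most like Slc26a3 were Ippk (r = 0.80), Ggh (r = 0.79) and Cdh17, which encodes an intestinal cadherin (r = 0.78). Those most like Car4 were Usp12 (r = 0.77), Muc3, a membrane mucin gene (r = 0.72), and Ccdc186 (r = 0.70). Car1 was most like Zg16, a goblet cell gene (r = 0.79), Akr1b8 (r = 0.78) and Ctse (r = 0.77). Car2 was most like D15Ertd621e (r = 0.86), Sord (r = 0.84) and Akr1c14 (r = 0.82).

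Of 50 further genes of ion, acid-base and water transport, 41 to 43 could be tested in each comparison. Between the sexes on CD, 2 of 41 were lower in females by adjusted p and 0 higher, against 2.92% of all tested genes in either direction. By the study's threshold 5 were lower and 1 higher, against 6.21% and 2.94% of all tested genes. Car14, a membrane carbonic anhydrase gene, was at 0.298, 0.829 and 1.23 CPM in CD females and 1.66, 2.25 and 2.58 CPM in CD males, with no overlap. Its log2 fold change was -1.52 ± 0.28, with adjusted p = 0.00657, at only 3 to 35 counts per library. Prkg1, the cGMP-dependent kinase of smooth muscle, differed by -0.61 ± 0.15 (adjusted p = 0.0437), and by -0.09 with the smooth muscle score as a covariate. Slc4a4, the basolateral sodium-bicarbonate cotransporter that brings bicarbonate into the cell, differed by -0.55 ± 0.17, with adjusted p = 0.0930.

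Atp12a, which encodes the catalytic subunit of the colonic proton-potassium pump, differed in males. It was at 306, 409 and 433 CPM in CD males, 467, 601 and 804 CPM in HFD males, and 279.9, 349 and 413 CPM in HFD+E2 males. HFD males did not overlap with either group. HFD against CD gave 0.69 ± 0.14 with adjusted p = 0.295, and E2 against vehicle gave -0.84 ± 0.15 with adjusted p = 0.148. Both comparisons use the same HFD males. Each passed the study's threshold in all 26 alternative fits, from 0.55 to 0.75 and from -0.98 to -0.75, and DESeq2 gave adjusted p of 0.0111 and 0.000343. In females, HFD against CD was 0.32 ± 0.15, with adjusted p = 0.879. The sex by diet interaction was -0.38 ± 0.22, with adjusted p = 0.749, so a difference in the diet effect between the sexes was not shown.

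By the study's threshold, 4 of 41 tested genes of that list were higher on HFD in females (2.95% of all tested genes) and 2 of 41 in males (1.25%). On HFD, 2 of 42 were higher in females than in males (2.01%), and 3 of 41 were lower with E2 (3.24%). By adjusted p, 0 passed in these comparisons. Car12, a membrane carbonic anhydrase gene also expressed in squamous epithelium, was 2.31 ± 0.57 (log2) higher on HFD in females, with adjusted p = 0.412. With the squamous score as a covariate this was 0.41. Car13, a cytosolic carbonic anhydrase gene, was -0.53 ± 0.18 lower with E2, with adjusted p = 0.455. The third of the genes lower with E2, beside Atp12a and Car13, was Car8 at -0.58 ± 0.25, named here after its value was seen.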

How the data were processed

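Colons of 30 mice were analysed, 1 library per animal. The authors trimmed the reads with Trim Galore, aligned them by STAR to mm10 (GRCm38) and assigned them to genes by featureCounts, and the deposited values are whole-number counts without normalization. The authors also deposited TPM values from StringTie. Tool versions other than that of bcl2fastq (2.19.1.403) and the strand setting of the counting are not given in the sources used here. Ribosomal RNA was removed before library preparation, and mitochondrial genes held 26.1% to 38.0% of the counts. Reads carried no molecular identifiers, so the limits for a count of 0 cover counting error only.

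For each comparison, edgeR 4.0.16 (R 4.3.3) was run on the counts of 12 libraries (filterByExpr, TMM normalization, robust quasi-likelihood F-test), with Benjamini-Hochberg adjustment over all genes tested. Standard errors follow from the F statistic. The sex by diet interaction used the 24 vehicle libraries. The threshold of 0.05 and a log2 fold change of 0.4 is a reading of the study's, which does not say whether its p-value was adjusted. CPM are TMM-normalised, and log2 CPM used a prior count of 2. The p-values cover the spread between animals of a group. The tests were tried on simulated counts before use.

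Alternatives were DESeq2 1.42.0, its size factors, mitochondrial genes left out, no filter on counts or a minimum of 10 in each library, limma 3.58.1 on log2 TPM with 1 or 0.1 added (mean of at least 1 TPM, or no filter), the replicate number as a block, marker scores as covariates, all 30 libraries in one fit, each library left out in turn and, added after seeing the data, the HFD females of high squamous level left out. All 10 genes are named with their values. Of the 50 other transport genes, those with an adjusted p under 0.05 in any comparison are named, and then those past the study's threshold by lowest p up to 6 in all. For 4 genes, the 3 most like genes are named. The genes, lists and tests were chosen with earlier results of these data known. No authors' comparisons were used.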

Additional observations from a re-analysis of the deposited data

Results flagged for a closer look

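In 5 of 75 groups of 6 libraries, over 15 genes, the highest library lay far from the others by Dixon's test at its 95% level, which chance alone flags in about 1 of 20 groups. CD male 1 accounted for 4 of the 5. It had 926 normalised CPM of Slc26a3, where the next CD male had 618 CPM. For Slc9a2 it had 158 CPM against 102 CPM, for Aqp8 165 CPM against 78.8 CPM, and for Aqp4 58.5 CPM against 27.6 CPM. Its level of Car4, 163 CPM, was the lowest of its group, so the library was not high for all transport genes. The fifth was Car12 in HFD male 2, at 8.23 CPM, where the next HFD male had 2.68 CPM. HFD male 2 also had the highest squamous sum of its group, 2661 CPM. What sets these libraries apart was not tested.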

How the results depend on the processing

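Of the 8 differences past the study's threshold, both of Slc26a3 kept it in every alternative fit, and all 8 kept their direction in every one. Car1 (sexes on CD) lost it in 6 of 12 fits that left out a library, Car1 (HFD in males) in 8, Car2 (HFD in males) in 1, Car2 (E2) in 7 and Car4 (E2) in 2. Of the 14 other alternatives, Car1 and Car4 (sexes on CD) lost it in 2 each, Car1 and Car2 (HFD in males) in 6 each, Car2 (E2) in 6 and Car4 (E2) in 5. Over all genes and comparisons, 1 difference turned in sign with a call, that of Aqp8 between the sexes on CD, from 0.08 to -0.97 with the smooth muscle score as a covariate.

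By adjusted p, the number of the 9 genes called between the sexes on CD rose from 0 to 1 with DESeq2, with the smooth muscle score as a covariate and with limma on log2(TPM + 1), and ranged from 0 to 1 when each library was left out. In the other comparisons and the interaction it was 0 in every fit. The labels do not say whether the replicate numbers pair the animals. Between the sexes on CD, the correlation of same-numbered libraries was -0.14 for replicate 2 and 0.17 to 0.52 for the others. It was at or below 0.1 for at least 1 number in each comparison. Within each group, the replicate numbers rise with the sample numbers in the sample descriptions. Whether these numbers follow an order of processing or a batch was not tested. With the number as a replicate block, 3 genes were called between the sexes on CD by adjusted p (Slc26a3, Car1 and Car4, adjusted p from 0.00816 to 0.0272). Calls also rose over all genes. Of 14922 tested genes, 326 were higher and 615 lower in females with the block, against 116 and 319 without it.

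By the study's threshold, the 3 genes called between the sexes on CD became 1 with the B cell score as a covariate and 2 to 3 with a library left out. With the smooth muscle score they became 4, of which only Slc26a3 was among the 3: Car1 and Car4 left, and Slc9a2, Aqp8 and Aqp4 entered. Calls rose over all genes too: 1241 of 14922 were then higher and 1068 lower in females, against 439 and 927 without the score. Between the sexes on HFD, 0 became 1 with DESeq2, with the B cell score and with all 30 libraries in one fit, 3 with the smooth muscle score, and 0 to 2 with a library left out. With the smooth muscle score, 562 of 15179 genes were higher and 233 lower in females on HFD, against 305 and 164 without it. Between HFD and CD in females, 0 became 1 with the replicate block, with the squamous or the smooth muscle score and without the HFD females of high squamous level, 2 with the epithelium score, and 0 to 1 with a library left out. In males, 2 became 1 with the replicate block (Car4, in place of Car1 and Car2) and with the epithelium score (Car2). They became 0 with limma on TPM under each of its 3 settings, and 1 to 3 with a library left out. Car4 also entered with no filter on low counts and with at least 10 counts in every library. With the B cell score, Aqp8 entered and Car2 left. With the smooth muscle score there were again 2, but Aqp8 and Aqp4 in place of Car1 and Car2. With E2, 3 became 2 in 8 alternatives, among them the replicate block and each of the 4 marker scores, 1 to 3 with a library left out, and 1 without HFD male 2. With limma on TPM there were again 3, with Slc12a2 in place of Car4. Over all genes, limma on log2(TPM + 1) called 1216 lower and 168 higher of 15792 with E2, where edgeR called 486 and 395 of 15010. The causes were not tested. Adding 1 to TPM understates the fold change of low genes.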
